A study of Macaca mulatta with 30 samples.

Results

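The comparison was of fetal hippocampus from Rhesus macaques whose mothers had been given the clinical drug with that from animals whose mothers had been given betamethasone acetate alone (Beta-Ac), both delivered 5 days after the injection. Its members were the hippocampus RNA-sequencing libraries named CEL and BAC, 5 of each, which are 10 of the 30 samples of the series. The 5 saline control libraries of the same tissue (CTL) entered no test and are given as background levels, and the lung libraries were not used here. The clinical drug is Celestone, in which betamethasone phosphate and betamethasone acetate are combined, and it was injected into the muscle of the mother at 0.25 mg/kg. Beta-Ac was injected at 0.125 mg/kg. Because the clinical drug holds equal parts of both esters, the acetate dose was shared and the phosphate was added to it, so that formulation and total dose cannot be told apart. Gestational age at delivery was 136, 133, 133, 132 and 131 days in CEL115, CEL120, CEL126, CEL238 and CEL245, and 133, 133, 132, 132 and 132 days in BAC128, BAC130, BAC136, BAC235 and BAC237. Values are given in these orders throughout.

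The labels of these libraries conflict. The library names carry the drug as CEL or BAC, but the treatment and dose fields are exchanged, so that the CEL libraries are listed with acetate at 0.125 mg/kg and the BAC libraries with the combined drug at 0.25 mg/kg. The names were used here. In the lung, 3 of the CEL animals also had a library and all 3 were labelled with the clinical drug at 5 days, while all 3 BAC animals with a lung library were labelled with Beta-Ac, and 0 animals had conflicting names. The remaining animals had no such second label. If the treatment field were the correct one, each direction given here would be reversed.

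Betamethasone is a synthetic glucocorticoid that crosses the placenta and binds the glucocorticoid receptor, a transcription factor that moves to the nucleus once bound. The hippocampus is rich in glucocorticoid and mineralocorticoid receptors and takes part in the feedback that restrains the stress axis. In late gestation its pyramidal cells and interneurons are forming synapses, granule cells are still being born in the dentate gyrus, and oligodendrocyte precursors are starting to mature.

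Sequencing depth was 20.9, 20, 25.9, 23.4 and 20.7 M counted reads in the CEL libraries and 27.2, 24.9, 22.7, 22.9 and 29.3 M in the BAC libraries. Both groups were spread over the same sequencing runs, with CEL115, CEL120, CEL126, BAC128, BAC130 and BAC136 in run A and the other 4 libraries in run B. The form of the animal labels also differed between run A and run B, so that run and label series cannot be told apart. Markers of hippocampal excitatory neurons were present in each library. The tested members of that list summed to 4581, 4861, 3999, 5274 and 4657 CPM (counts scaled by library size) with the clinical drug and to 3566, 3577, 3431, 4748 and 3082 CPM with Beta-Ac, with CAMK2A taking the most reads. PROX1, a transcription factor of dentate granule cells, was at 61.9, 47.1, 47.6, 53.7 and 41.3 CPM with the clinical drug and at 50, 11.7, 27.7, 10.1 and 28.2 CPM with Beta-Ac.

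Some libraries stood apart. In BAC235 the 5 most abundant identifiers, none with a symbol, took 0.538% of reads, against 6.53% to 14.4% in the other 9 libraries of the comparison, and a control, CTL092, was as low at 0.55%. Its mean distance to its own group was 99.5 log2 units, and that of the remaining libraries ranged from 66.5 to 90.7. BAC130 held 259.3 CPM of choroid plexus markers, while the other 9 libraries of the comparison held 35.0 to 70.9 CPM and a control, CTL212, held 1692 CPM. The first principal component carried 27.0% of the variance, with BAC235 at 66.4 at its end, and it also placed the libraries of run B above those of run A. The second carried 17.1%, with BAC130 at 51.7. Y-linked genes, which mark male fetuses, summed to more than 10 CPM in 1 of 5 CEL libraries (CEL115) and in 3 of 5 BAC libraries (BAC130, BAC136 and BAC235), so the sexes were not equally mixed between the drugs.

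**Figure D1:**
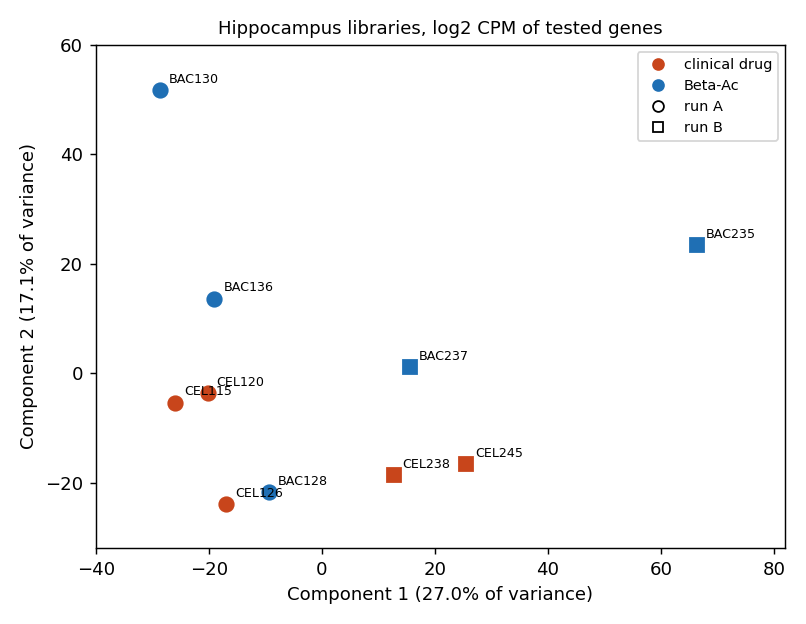
Scores of the 10 libraries on the first and second principal components of log2 CPM over the 16995 tested genes; each point is a library, colour gives the drug and shape the sequencing run. BAC235 lies at 66.4 on the first component and BAC130 at 51.7 on the second, while the 5 clinical drug libraries lie between -24.0 and -3.6 on the second.

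For the transcriptome as a whole, the question was how far the drugs separated the animals. The mean distance between a clinical drug and a Beta-Ac library was 82.4 log2 units, against 69.9 among clinical drug libraries and 87.3 among Beta-Ac libraries. The distance between groups exceeded that within groups by 3.74, which did not pass an exact one-sided permutation test over all divisions of the libraries (p = 0.0635). Beta-Ac libraries lay farther from each other than clinical drug libraries by 17.4, which did not pass an exact two-sided permutation test either (p = 0.0714). Libraries of the same run lay 74.9 apart on average and libraries of different runs 85.8. With the run effect removed, the excess between groups was 6.72 (permutation p = 0.00794, the smallest this test can give). That p-value is not exact, because the divisions did not keep to run. Removing the run effect draws libraries of different runs together, which favours the actual division, balanced over runs. Within run A alone the excess was 0.383 (exact permutation p = 0.5, where the smallest possible is 0.1). With run left in, leaving out BAC128, BAC130, BAC136 or BAC235 brought the excess past the threshold, with values of 7.09, 5.80, 6.73 and 5.30. Without BAC237 it was 4.66 (exact permutation p = 0.0714), and without any 1 of the clinical drug libraries it was between 1.02 and 2.22, with exact permutation p between 0.222 and 0.349. The excess within Beta-Ac was 16.2 with the run effect removed (permutation p = 0.0318, not exact, as these divisions did not keep to run either). With run left in, it passed with Spearman distance (exact permutation p = 0.0476) and without BAC136 (21.9, exact permutation p = 0.0318). It did not pass without BAC235, where it was 9.34 (exact permutation p = 0.230), nor over the 500 most variable genes (exact permutation p = 0.111). Without any 1 of the libraries other than BAC136 and BAC235 it did not pass either (exact permutation p from 0.0714 to 0.1825). The same held with RLE normalization (exact permutation p = 0.0714) and in run A alone (exact permutation p = 0.4).

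Of 16995 genes tested with edgeR's quasi-likelihood test, 0 (0.0%) were differentially expressed between the clinical drug and Beta-Ac at a fold change of 1.5, p under 0.05 and a Benjamini-Hochberg adjusted p under 0.1. At an unadjusted p under 0.05, 874 genes (5.14%) had higher and 1382 (8.13%) had lower values with the clinical drug. With the same thresholds edgeR's exact test called 148 genes, its likelihood ratio test 155 and DESeq2 236, and 138 genes were called by all 3. The quasi-likelihood test called 10 genes without BAC128, 3 without BAC235, and 74 without BAC235 when run was also a block, a combination chosen after seeing the data. At an unadjusted p under 0.05 there were 500 higher and 498 lower genes in run A alone, with 3 libraries of each drug, and 864 higher and 1387 lower in run B alone, with 2 of each and BAC235 among them. Without BAC237 there were 641 higher and 884 lower. Larger counts came without BAC130, with 1131 higher and 1799 lower, and with run as a block, with 1394 higher and 1754 lower. The values of the clinical drug group all lay above those of the Beta-Ac group in 250 genes (1.47%) and all below in 224 genes (1.32%). In the lists that follow, genes counted as higher or lower are those at an unadjusted p under 0.05. None of the genes named in the following text passed the main test, and their values are given as measurements.

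The lowest p-value belonged to HS6ST3, which encodes an enzyme that adds sulfate groups to heparan sulfate chains. Its level was 27.6, 27.6, 20.9, 26.4 and 23.5 CPM with the clinical drug and 15.8, 12.4, 11.4, 10.3 and 12.5 CPM with Beta-Ac. The groups did not overlap, and the controls lay between and across them at 17.7 ± 5.29 CPM (SD, n = 5). The log2 fold change was 1.01 (95% confidence interval 0.72 to 1.31), with an adjusted p of 0.124 by edgeR's quasi-likelihood test with Benjamini-Hochberg adjustment. It was 0.94 in run A and 1.13 in run B. HS6ST3 was the only gene called with RLE in place of TMM normalization and the only one called with Storey's adjustment.

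SORL1, DAB1, EPHA7 and GPR161 were among the 10 genes of lowest p with higher values. SORL1, a sorting receptor that routes the amyloid precursor protein, was at 425, 442, 359, 407 and 355 CPM with the clinical drug and 298, 197, 232, 232 and 187 CPM with Beta-Ac. Its log2 fold change was 0.79 ± 0.13 (SE), and the controls spread over both groups at 284 ± 91.7 CPM (SD, n = 5). EPHA7, an ephrin receptor that guides axons by repulsion, was at 156, 155, 124, 158 and 146 CPM against 120, 68.3, 74.3, 85.7 and 79.2 CPM. The groups were separate by a narrow margin, set by BAC128. DAB1, the adaptor through which reelin acts on migrating neurons, had a mean of 231.8 ± 12.4 CPM (SD, n = 5) against values of 186.3, 148.7, 182.4, 144.6 and 158.1 CPM, without overlap but with a difference under the fold threshold at a log2 fold change of 0.50. GPR161, a receptor of the primary cilium that restrains hedgehog signaling, had a mean of 86.9 ± 10.3 against 57.9 ± 4.84 CPM (SD, n = 5 each).

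Nicotinic acetylcholine receptor subunits were found on both sides. CHRNA2, an alpha subunit expressed by a class of hippocampal interneurons, was at 33.6, 44.9, 18.8, 27.1 and 26.8 CPM with the clinical drug and 11.2, 3.51, 11.2, 12.6 and 6.31 CPM with Beta-Ac. The log2 fold change was 1.75 ± 0.33 (SE), and the controls ranged from 8.56 to 36.5 CPM, across both drugs. CHRNB4, a beta subunit, was low throughout, at 4.61, 5.03, 3.03, 4.91 and 5.23 CPM against 1.32, 0.897, 1.06, 2.98 and 1.30 CPM. BAC235 was the high Beta-Ac library, and the log2 fold change was 1.59 with it and 1.99 without it. CHRNE, the subunit of the adult muscle receptor, had the lowest p among genes that have a symbol and lower values, at 3.54, 4.62, 4.27, 4.47 and 5.74 CPM with the clinical drug and 6.43, 8.73, 8.78, 9.05 and 11.5 CPM with Beta-Ac. Its log2 fold change was -0.98 ± 0.18 (SE).

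The remaining genes of lowest p with higher values were GPR17, GJC1 and ZNF665. GPR17, a receptor of oligodendrocyte precursors that are about to mature, was at 77.7, 96.7, 68.2, 91.4 and 100.5 CPM with the clinical drug and 50.6, 30.7, 53.0, 50.5 and 53.6 CPM with Beta-Ac. All 5 controls, at 46.8 to 63.2 CPM, lay below the lowest clinical drug library. GJC1, a gap junction protein, had a mean of 11.9 ± 1.80 against 6.52 ± 1.13 CPM, and ZNF665, a zinc finger gene, 17.3 ± 3.06 against 9.08 ± 1.34 CPM (SD, n = 5 each).

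Genes of lowest p with lower values included ion channels and proteins of secretory vesicles. RYR1, a calcium release channel of the endoplasmic reticulum, was at 40.1, 35.7, 49.8, 38.5 and 42.9 CPM with the clinical drug and 65.1, 50.3, 66.3, 71.2 and 75.7 CPM with Beta-Ac. KCNH2, a potassium channel, had a mean of 18.6 ± 1.57 against 27.4 ± 2.601 CPM (SD, n = 5 each). PTPRN, a membrane protein of dense-core vesicles, was at 111, 126, 121, 133 and 117 CPM against 163.3, 162.3, 155.9, 159.3 and 198.2 CPM. BAIAP3, which takes part in dense-core vesicle trafficking, was at 22.7, 16.6, 33.2, 23.2 and 22.9 CPM against 46.2, 45.6, 54.8, 36.5 and 105 CPM, with BAC237 the highest. Groups did not overlap for any of these genes, and the controls spread widely, from 31.1 to 118.2 CPM for BAIAP3 and from 51.6 to 85.8 CPM for RYR1.

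DACH2, a transcriptional cofactor, was at 4.12, 3.61, 4.82, 4.17 and 3.15 CPM with the clinical drug and 5.89, 6.73, 7.49, 7.89 and 9.31 CPM with Beta-Ac. USP11, a deubiquitinating enzyme, had a mean of 290.4 ± 15.6 against 417.9 ± 52.4 CPM, and PIDD1, a death domain protein that acts downstream of p53, 26.4 ± 2.31 against 41.4 ± 7.12 CPM (SD, n = 5 each). GALNT14, which starts O-linked glycosylation, was at 10.3 ± 0.716 against 15.1 ± 1.48 CPM, and KIF22, a kinesin that binds chromosomes, at 27.8 ± 2.51 against 42.3 ± 7.24 CPM (SD, n = 5 each). The clinical drug libraries were tighter around their mean than the Beta-Ac libraries in each of these 5 genes.

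**Figure D2:**
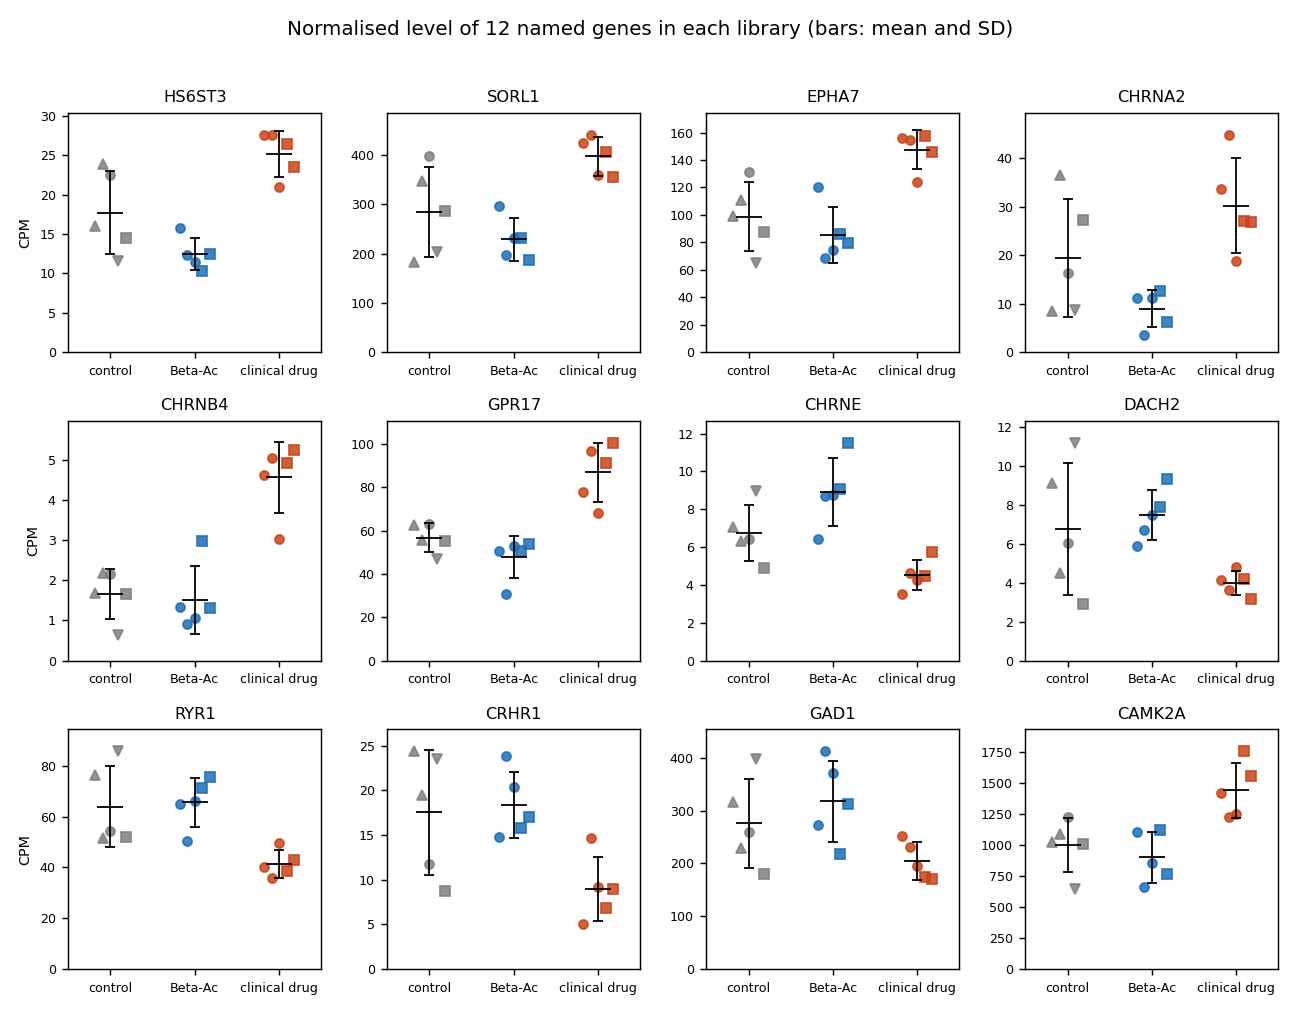
Level of 12 named genes in CPM (vertical axis, from 0) in control, Beta-Ac and clinical drug libraries; each point is an animal, its shape gives the sequencing run (circle A, square B, upward triangle C, downward triangle D), and bars give the mean and SD. For HS6ST3 the clinical drug libraries lie between 20.9 and 27.6 CPM and the Beta-Ac libraries between 10.3 and 15.8 CPM, and the controls span both.

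The receptors that bind betamethasone overlapped between the drugs, as most tested genes did. NR3C1, the glucocorticoid receptor, was at 27.9, 28.1, 20.9, 22.1 and 21.9 CPM with the clinical drug and 22.9, 25.9, 22.4, 13.0 and 16.9 CPM with Beta-Ac, with a 95% confidence interval of the log2 fold change from -0.13 to 0.65. NR3C2, the mineralocorticoid receptor, was at 59.5, 46.0, 56.2, 56.0 and 45.0 CPM against 69.4, 26.9, 49.2, 27.9 and 51.1 CPM. Its interval ran from -0.29 to 0.74. HSD11B2, which inactivates cortisol, was near the limit of counting at 0.434 to 0.957 CPM with the clinical drug and at 0.75, 0.612, 0.460, 15.4 and 1.101 CPM with Beta-Ac. The single high library was BAC235, and the log2 fold change was -2.40 with it and -0.091 without it. No identifier was matched to HSD11B1 or TSC22D3.

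Among receptors and steroid metabolism genes, 13 of 17 listed genes were tested, 0 were called, and the median log2 fold change was -0.086 beside -0.008 over all genes. The median turned with the libraries used, from -0.18 without BAC128 to 0.10 without CEL126, and was 0.12 in run B. At an unadjusted p under 0.05, 0 had higher and 3 lower values. CRHR1, the receptor through which corticotropin-releasing hormone acts on hippocampal neurons, had the lowest p. It was at 5.05, 14.6, 9.13, 6.86 and 8.94 CPM with the clinical drug and 14.8, 23.9, 20.4, 15.8 and 16.9 CPM with Beta-Ac, with a log2 fold change of -1.04 ± 0.25 (SE). CEL120 came within a small margin of BAC128, and the controls ranged from 8.77 to 24.4 CPM. HSP90AB1, a chaperone of the receptor, had a mean of 18.8 ± 2.85 against 26.2 ± 4.88 CPM (SD, n = 5 each).

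Genes known as glucocorticoid targets overlapped between the drugs, as most tested genes did. Over all genes the groups did not overlap in 1.47% with higher and 1.32% with lower values. Of 23 listed targets, 17 were tested, 0 were called, and 0 had an unadjusted p under 0.05 in either direction. Their median log2 fold change was -0.13, and it was -0.059 without BAC128 and 0.023 in run B. FKBP5, a co-chaperone that dampens the receptor and is itself induced by it, was at 3.20, 2.23, 3.35, 3.30 and 4.11 CPM with the clinical drug and 5.79, 6.48, 3.12, 2.82 and 3.97 CPM with Beta-Ac. Only BAC128 and BAC130 exceeded the clinical drug libraries, and the log2 fold change was -0.81 in run A and 0.12 in run B. PER1, a clock gene with a glucocorticoid response element, had a mean of 48.4 ± 6.31 against 57.4 ± 9.18 CPM, and SGK1, a kinase induced by corticosteroids, 67.2 ± 6.85 against 82.4 ± 23.4 CPM (SD, n = 5 each). ZBTB16 was at 30.7 ± 3.48 against 29.5 ± 11.7 CPM, and ERRFI1, which had the lowest p of the list, at 24.7 ± 2.51 against 21.2 ± 1.23 CPM (SD, n = 5 each). The interval of the difference for ZBTB16, from -0.47 to 0.58, leaves room for changes of either sign.

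Hippocampal excitatory neuron genes had a median log2 fold change of 0.19 over 21 tested of 22 listed, which ranged from 0.11 without BAC128 to 0.30 without CEL126. Of these, 6 had higher and 1 lower values at an unadjusted p under 0.05, and 0 were called. CAMK2A, the alpha subunit of the synaptic kinase CaMKII, was at 1425, 1225, 1250, 1760 and 1558 CPM with the clinical drug and 1105, 659.1, 853.2, 1126 and 767.8 CPM with Beta-Ac. The groups did not overlap, with a log2 fold change of 0.68 ± 0.16 (SE) and controls at 1001 ± 219 CPM (SD, n = 5). NEUROD6, a transcription factor of pyramidal neurons, had a mean of 288.4 ± 71.7 against 165.5 ± 55.9 CPM (SD, n = 5 each). In bulk tissue, fewer cells of a type and less RNA per cell cannot be told apart, and the part of the dissection was not tested.

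Interneuron genes had mostly lower values with the clinical drug, 12 of the tested genes against 4. Of 19 listed, 16 were tested, 0 were called, and 0 had higher and 7 lower values at an unadjusted p under 0.05. The median log2 fold change was -0.35, and it was -0.29 in run A and -0.32 in run B. Striatal genes also had a median of -0.35, but of -0.043 without BAC237. BAC130, the library of the comparison with the highest GAD1 and SST, also had the highest PPP1R1B, a striatal gene, at 106 CPM. The part of striatal tissue in the interneuron values was not tested. GAD1, which makes GABA, was at 253, 231, 196, 175 and 170 CPM with the clinical drug and 273, 413, 373, 218 and 312 CPM with Beta-Ac. The overlap came from BAC235. SST, a peptide of dendrite-targeting interneurons, was at 96.6, 100.5, 84.0, 112.5 and 94.8 CPM against 105.4, 187.2, 160.5, 120.1 and 142.8 CPM. Only BAC128 lay below the highest clinical drug library, CEL238, with a log2 fold change of -0.55 ± 0.15 (SE). GAD2, the second GABA-making enzyme, had a mean of 132.0 ± 30.3 against 139.1 ± 32.5 CPM (SD, n = 5 each), a smaller difference than GAD1. Summed, the tested interneuron genes gave 1306, 1224, 988.7, 1133 and 944.5 CPM with the clinical drug and 1377, 1614, 1455, 1102 and 1681 CPM with Beta-Ac, beside 1480 ± 275 CPM in controls (SD, n = 5), with RELN taking the most reads.

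Oligodendrocyte lineage genes had mostly higher values with the clinical drug, 12 of the tested genes against 2. Of 19 listed, 14 were tested and 0 called, and 8 had higher and 0 lower values at an unadjusted p under 0.05. The median log2 fold change was 0.38, with 0.32 in run A and 0.41 in run B. PDGFRA, the growth factor receptor of precursors, had a mean of 288.5 ± 36.8 against 238.5 ± 13.9 CPM (SD, n = 5 each) and took the most reads of the list. MBP, a structural protein of myelin, was at 101, 88.9, 32.2, 56.5 and 122 CPM with the clinical drug and 50.8, 22.9, 25.9, 37.5 and 36.9 CPM with Beta-Ac. CEL126 lay within the Beta-Ac range, and the controls, at 84.6 ± 40.1 CPM (SD, n = 5), resembled the clinical drug group in mean. The summed level was 1036, 1067, 826.9, 920.9 and 1220 CPM with the clinical drug and 812.2, 630.3, 767.6, 792.9 and 794.1 CPM with Beta-Ac, so that the groups did not overlap, and it was 889.8 ± 136 CPM in controls (SD, n = 5).

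**Figure D3:**
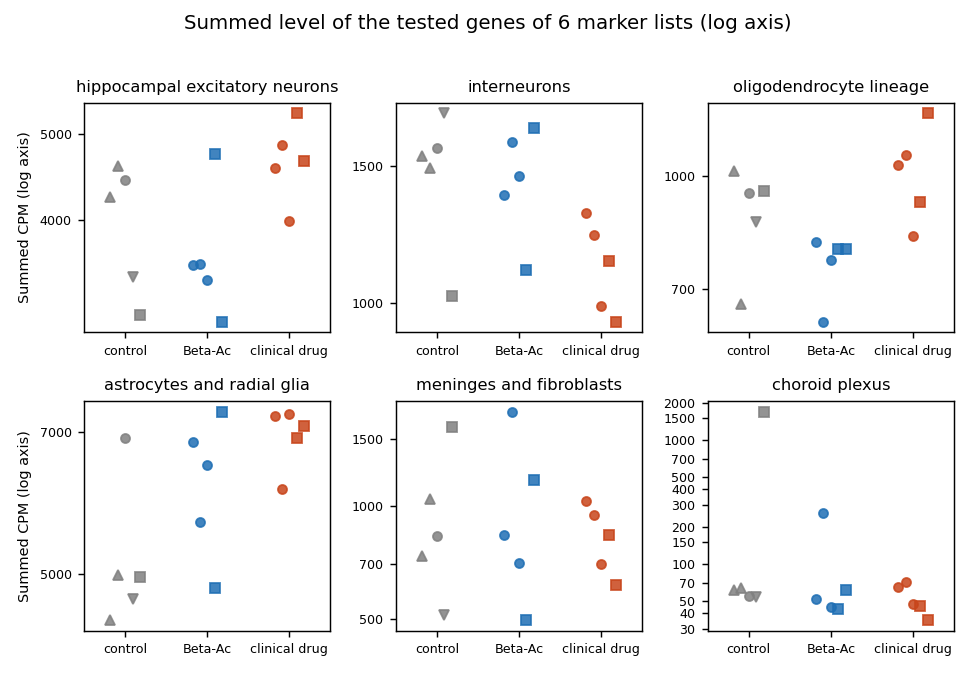
Summed CPM of the tested genes of 6 marker lists in each control, Beta-Ac and clinical drug library on a log axis; each point is an animal and its shape gives the sequencing run, as in the plot of named genes. The oligodendrocyte sums of the clinical drug libraries, from 826.9 CPM, lie above those of the Beta-Ac libraries, up to 812.2 CPM, and BAC130 has 259.3 CPM of choroid plexus genes.

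Synaptic genes were divided. Of 37 listed, 33 were tested and 0 called, with 4 higher and 4 lower at an unadjusted p under 0.05 and a median log2 fold change of 0.072, or -0.006 without BAC235. GRIN2A, a subunit of the NMDA receptor that becomes more frequent as synapses mature, was at 34.2, 29.5, 25.2, 32.6 and 26.2 CPM with the clinical drug and 28.3, 16.5, 17.3, 15.6 and 15.1 CPM with Beta-Ac. BAC128 alone reached the clinical drug range, and without it GRIN2A was among the 10 genes called. SYN1, a phosphoprotein of synaptic vesicles, had a mean of 104.1 ± 20.7 against 146.0 ± 49.2 CPM (SD, n = 5 each), and the control mean of 180.5 CPM was above both.

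Among semaphorins and other axon guidance genes, 40 of 41 were tested and 0 called, with 3 higher and 5 lower at an unadjusted p under 0.05 and a median log2 fold change of -0.054, or 0.0 without BAC237. Besides EPHA7, the list held EPHA5, another ephrin receptor, at 337.4 against 165.3 CPM on average, and SEMA6D, a transmembrane semaphorin, at 140.7 against 103.4 CPM. SLIT2, a secreted repellent of axons, averaged 87.1 against 155.5 CPM, and it was called without BAC235 at a log2 fold change of -0.996. SEMA3A, the first semaphorin listed, was at 6.11 ± 1.45 against 6.33 ± 1.91 CPM (SD, n = 5 each).

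Progenitor and neurogenesis genes had a median log2 fold change of 0.18, with 24 of 32 tested, 0 called, 4 higher and 1 lower at an unadjusted p under 0.05. The 1 with lower values was NRG1, a growth factor for neurons and glia, at 13.8, 10.3, 14.6, 7.82 and 6.04 CPM with the clinical drug and 15.4, 29.4, 24.6, 9.86 and 20.2 CPM with Beta-Ac. Those with higher values included NEUROG2, a proneural transcription factor, at 5.25 against 3.08 CPM on average. Cell cycle genes had a median of -0.40 with all 20 tested, 0 called, 1 higher and 3 lower at an unadjusted p under 0.05, but the median was -0.049 in run A and -0.71 in run B. BAC235 had the highest sum, 390.8 CPM, and without it the median was -0.16. MKI67, a marker of dividing cells, averaged 20.2 ± 3.81 against 14.3 ± 3.46 CPM, and MCM6, a subunit of the replicative helicase, 26.7 ± 2.22 against 36.0 ± 3.28 CPM (SD, n = 5 each), so that MKI67 was 1 of the 2 genes of the list with higher fitted values, against 18 with lower ones.

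Astrocyte and radial glia genes had a median of -0.053 over 12 tested of 14, with 2 higher and 0 lower at an unadjusted p under 0.05 and 0 called. The median was 0.058 in run A and 0.015 in run B, and it ranged from -0.14 without BAC235 to 0.14 without BAC237. SPARCL1, a matrix protein that astrocytes secrete, averaged 1586 ± 306 against 1112 ± 97.5 CPM without overlap, whereas GFAP was at 485.1 ± 83.8 against 541.6 ± 297 CPM (SD, n = 5 each) and turned sign without BAC237. Microglia genes had a median of 0.061 over 9 tested of 14, with 1 higher, 0 lower and 0 called. That median was 0.39 in run A and -0.079 in run B, and it ranged from -0.067 without BAC136 to 0.31 without BAC235. P2RY12, a purine receptor of resting microglia, averaged 73.5 ± 17.7 against 50.3 ± 11.7 CPM, and CSF1R, the receptor microglia need to survive, 32.3 ± 7.39 against 29.3 ± 9.95 CPM (SD, n = 5 each). Endothelial and pericyte genes had a median of -0.033 over 14 tested of 16, with 1 higher, 1 lower and 0 called, and the median ranged from -0.12 without CEL245 to 0.05 without BAC237. FLT1, a receptor for vascular growth factor, was at 49.2, 48.2, 63.6, 48.9 and 61.6 CPM with the clinical drug and 42.6, 32.7, 38.3, 28.9 and 33.0 CPM with Beta-Ac.

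Markers of tissue that borders the hippocampus varied between single libraries, controls included. Meningeal and fibroblast genes had a median log2 fold change of -1.14 over 10 tested of 12, with 1 higher, 5 lower and 0 called, and leaving out single libraries moved the median between -1.59 and -0.50. COL1A1, a fibrillar collagen, was at 46.3, 18.3, 5.50, 11.1 and 11.8 CPM with the clinical drug and 65.3, 134, 8.46, 11.1 and 132 CPM with Beta-Ac, highest in BAC128, BAC130 and BAC237, with CEL115 next, and it reached 242.3 CPM in the control CTL212. ALDH1A1, a retinoic acid enzyme and the member of lowest p, lay the other way, at 59.2, 51.6, 32.6, 63.0 and 50.02 CPM with the clinical drug and 50.04, 27.2, 18.9, 36.0 and 17.3 CPM with Beta-Ac, with a log2 fold change of 0.78 ± 0.28 (SE). BAC128 and BAC235 reached into the clinical drug range. The summed level was 825.0 ± 171 against 996.1 ± 499 CPM (SD, n = 5 each), with IGFBP5 taking the most reads. Choroid plexus genes had a median of -0.43 over 8 tested of 12, with 0 higher, 2 lower and 0 called, and of -0.057 without BAC130. SLC13A4, a sulfate transporter, was at 6.79, 2.95, 0.478, 1.17 and 0.559 CPM against 6.36, 203, 3.54, 0.658 and 21.2 CPM, and its log2 fold change was -4.31 with BAC130 and -1.74 without it. The control CTL212 held 366.3 CPM. No identifier was matched to TTR, the leading choroid plexus gene, and CLDN2 had at most 1 read in a library. The part of these tissues in the other differences was not tested.

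Striatal genes had a median of -0.35 over 7 tested of 11, with 0 higher, 2 lower and 0 called. The median was -0.15 in run A, -0.52 in run B and -0.043 without BAC237. PPP1R1B, a phosphatase inhibitor of dopamine-responsive neurons, was at 106 CPM in BAC130 and at 18.7 to 41.0 CPM in the other 9 libraries, and DRD1, a dopamine receptor, at 19.1 ± 4.00 against 18.9 ± 5.92 CPM (SD, n = 5 each). Thalamic genes had a median of -0.24 over 7 tested of 9, with 0 higher, 0 lower and 0 called, and of -0.12 without BAC130. TCF7L2, their first member, was at 5.61 ± 0.496 against 6.48 ± 1.25 CPM, and LHX2, which also marks hippocampal progenitors, at 115.5 ± 12.8 against 102.3 ± 7.67 CPM (SD, n = 5 each). Ependymal and cilia genes had a median of -0.16 over 7 tested of 10, with 0 higher, 0 lower and 0 called, and of -0.38 in run A and -0.021 in run B. FOXJ1, the factor that starts motile cilia, was at 42.4 ± 18.9 against 39.3 ± 20.1 CPM, and CAPSL at 3.15 ± 0.934 against 4.81 ± 2.84 CPM (SD, n = 5 each). Erythroid genes summed to at most 11.4 CPM in a library, and 5 of 14 were tested, with a median of -0.40, 0 higher, 0 lower and 0 called. The median was -0.81 in run A and 1.38 in run B, and -0.15 without BAC128. Their lowest p was that of KLF1, at 0.541 ± 0.196 against 0.719 ± 0.202 CPM (SD, n = 5 each).

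Immediate early genes had a median of -0.022 over 11 tested of 18, with 0 higher, 0 lower and 0 called, and of 0.14 without BAC130. FOS was at 41.2, 42.0, 29.6, 10.7 and 23.0 CPM with the clinical drug and 46.8, 46.8, 19.1, 39.1 and 73.5 CPM with Beta-Ac, and EGR2 at 8.68 ± 2.11 against 6.07 ± 2.97 CPM (SD, n = 5 each). Circadian clock genes had a median of 0.065 over 14 tested of 16, with 2 higher, 1 lower and 0 called, and of 0.005 without CEL245. ARNTL, the partner of CLOCK, averaged 36.8 ± 3.97 against 44.3 ± 4.51 CPM (SD, n = 5 each). Hypoxia and heat shock genes had a median of 0.071 over 11 tested of 16, with 1 higher, 1 lower and 0 called, and of 0.16 without BAC130. VEGFA, a vascular growth factor, averaged 185.7 ± 39.0 against 141.3 ± 17.3 CPM, and PDK1, a kinase that inhibits pyruvate dehydrogenase, 2.35 ± 0.280 against 3.65 ± 0.923 CPM (SD, n = 5 each). Cholesterol synthesis genes had a median of -0.18 over 12 tested of 17, with 0 higher, 2 lower and 0 called. DHCR7, which completes cholesterol synthesis, was at 45.8, 44.6, 55.1, 59.2 and 58.8 CPM against 65.8, 63.1, 73.7, 60.3 and 75.4 CPM without overlap. Of the 8 sex-linked genes 6 were tested, all Y-linked, with 0 higher, 0 lower and 0 called, and their median of -1.43, or -6.75 without CEL115, goes with the unequal number of libraries with Y-linked reads. KDM5D, the one of lowest p, was at 23.6 CPM in CEL115 and at 25.6 to 28.6 CPM in BAC130, BAC136 and BAC235.

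**Figure D4:**
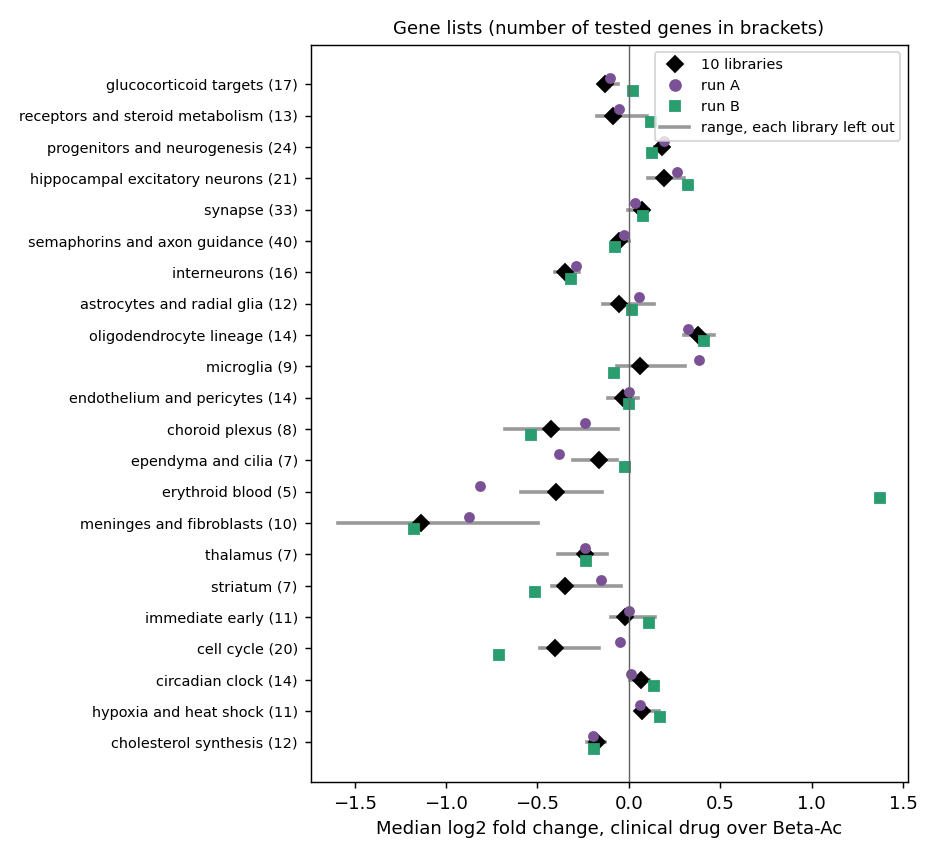
Median log2 fold change of the clinical drug over Beta-Ac (horizontal axis) for each gene list other than the sex-linked one; diamonds use the 10 libraries, circles run A, squares run B, and grey lines span the medians with each library left out. Interneuron genes lie at -0.35 and oligodendrocyte genes at 0.38, on the same side in both runs, and the cell cycle median is -0.049 in run A and -0.71 in run B.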

How the data were processed

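RNA of fetal hippocampus was selected for polyA tails and sequenced in pairs. The authors deposited raw counts of reads per Ensembl gene. The paper names Bowtie2, the build MMUL1.0 and featureCounts for its reads, without saying whether this covers the hippocampus. Versions of these tools were not given in the sources used here. The table held 32386 identifiers, of which 17621 were matched to a symbol. Of the tested genes 75.9% had one. Overlapping genes, antisense genes and near-identical copies may share reads, since strand use was not stated.

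A gene was tested when 5 or more of the 10 libraries held 7 or more of its reads. Counts were scaled by TMM and tested with edgeR 4.0.16 (R 4.3.3) by glmQLFit and glmQLFTest without a covariate, with Benjamini-Hochberg adjustment over all tested genes. DESeq2 1.42.0 was an alternative. The SE of a log2 fold change is its size over the square root of F. CPM are TMM-scaled, with controls scaled to the same reference library. Distances are Euclidean on log2 CPM (prior count 2) of the tested genes, with exact permutation tests over libraries (Python 3.11.15). With the run effect removed, the permutations did not keep to run and are not exact. Each library carried its own animal number, so all were kept as separate animals. Libraries of a group differed by far more than sampling noise (chi-square per degree of freedom at least 14.6). That comparison covers counting error only and cannot tell animals from separate preparations of the same animal.

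Genes were named by rule. Since 0 genes were called, the 10 genes with a symbol of lowest p in each direction were taken, with 9 receptor, enzyme and target genes of the glucocorticoid pathway, and in each of 23 gene lists the tested member of lowest p and, where it was tested, the first gene listed, with 1 of the first genes not used here. Other genes named were chosen after their values were seen. Members and lists were chosen with earlier results of these data known. Of the listed genes, counted once each, 328 were tested, 12 were under the read minimum and 74 had no matched identifier. Alternatives were RLE scaling, other filters, adjustments and tests, all 15 hippocampus libraries in the fit, run or gestational age as a covariate, single runs and each library left out. Added after seeing the data were the run block without BAC235 and a covariate for Y-linked reads over 10 CPM, as yes or no.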

Additional observations from a re-analysis of the deposited data

Results flagged for a closer look

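Each named gene, each list sum, the depth and the share of the 5 most abundant identifiers were looked at within each drug for a library far from the other 4. Of 174 such groups, 18 had one. The rule flags about 1 in 20 groups of independent, normally distributed values. Some of these genes also enter the list sums, so the count cannot be set against that rate. BAC130 was the far library in 5 of the 18. It was lowest for GPR17 (30.7 CPM) and for the summed oligodendrocyte genes (630.3 CPM), and highest for SLC13A4 (203.0 CPM), PPP1R1B (106.3 CPM) and the summed choroid plexus genes (259.3 CPM).

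BAC235 was highest in its group for HSD11B2 (15.4 CPM) and CHRNB4 (2.98 CPM), and BAC237 for PTPRN (198.2 CPM) and BAIAP3 (105.1 CPM). BAC128 was lowest for PIDD1 (28.97 CPM) and highest for GRIN2A (28.3 CPM) and VEGFA (171.3 CPM). In these 3 genes it was the Beta-Ac library nearest to the clinical drug group.

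In the clinical drug group CEL126 was lowest for CHRNB4 (3.03 CPM) and highest for LHX2 (138.1 CPM), PDK1 (2.83 CPM) and VEGFA (252.3 CPM). CEL115 was highest for KDM5D (23.6 CPM) and for the summed sex-linked genes (396.4 CPM), as the only library of its group with over 10 CPM of Y-linked reads.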

How the results depend on the processing

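The count of called genes was 0 with other filters, without a fold threshold, with all 15 libraries, with run or gestational age as a covariate, and in single runs. With Y-linked reads over 10 CPM, as yes or no, for a covariate, the count of called genes was also 0. It was 1 with RLE scaling, 1 with Storey's adjustment, 148 by edgeR's exact test, 155 by its likelihood ratio test, 236 by DESeq2 and 74 with run as a block without BAC235. Leaving out each library gave 0 to 10 calls, with 10 without BAC128 and 3 without BAC235. Genes at an unadjusted p under 0.05 with higher values numbered 1394 with run as a block and 500 in run A, and those with lower values 1754 with run as a block and 498 in run A. Over left-out libraries they ranged from 641 to 1131 higher and from 884 to 1799 lower.

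The excess distance between groups was 6.72 with the run effect removed and 1.02 to 7.09 over left-out libraries. The excess distance within Beta-Ac was 0.0126 with Spearman distance (exact permutation p = 0.0476) and 9.34 to 21.9 over left-out libraries. With the run effect removed it was 16.2 (permutation p = 0.0318, not exact because the divisions did not keep to run). Log2 fold changes of these uncalled genes turned sign in run A for HSD11B2 (0.394), GFAP (0.186), FOXJ1 (-0.232), DRD1 (-0.150) and FOS (0.001), and in run B for FKBP5 (0.123), CSF1R (-0.079) and KLF1 (0.164). Over left-out libraries they ranged from -0.121 to 0.286 for ZBTB16, -0.190 to 0.113 for SEMA3A, -0.322 to 0.225 for GFAP, -0.154 to 0.429 for FOXJ1 and -0.103 to 0.207 for DRD1. The cause was not tested. No paired analysis was possible because the groups share no animal numbers. Single runs hold 6 and 4 libraries. HSD11B2 had 398 reads in BAC235 and 10 to 33 reads in each of the other 9 libraries.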

Other observations

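Other members of the families named in the report were looked at after their values were seen, with no test of the families. Of 13 tested nicotinic receptor subunits, 9 had higher and 4 lower fitted values with the clinical drug, beside 48.8% higher over all genes. The counts include CHRNA2, CHRNB4 and CHRNE, named before for their low p. CHRNA7, the subunit of homomeric receptors in the hippocampus, was at 5.00, 4.52, 4.71, 4.69 and 4.57 CPM with the clinical drug and 7.07, 7.50, 7.08, 4.83 and 8.08 CPM with Beta-Ac, and BAC235 alone lay within the clinical drug range. CHRNB2, which took the most reads of the family, was at 162.9, 164.2, 137.1, 184.6 and 158.3 CPM against 122.5, 153.4, 146.9, 138.9 and 142.7 CPM. Of 8 tested EphA receptors 5 had higher and 3 lower fitted values, and the 5 include EPHA5 and EPHA7, which were already named. EPHA6 was at 44.8, 32.6, 26.6, 36.5 and 28.8 CPM against 35.0, 12.7, 15.0, 27.0 and 18.1 CPM.

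Of 15 tested genes of dense-core vesicles and secretion, 4 had higher and 11 lower fitted values, with 0 higher and 4 lower at an unadjusted p under 0.05. Over all 16995 genes 8708 had lower fitted values, and 1382 (8.13%) were lower at an unadjusted p under 0.05. PTPRN and BAIAP3, which prompted the choice of the set, are among the 4 set members with lower values, and the others are PTPRN2 and GNAS. Since the set was chosen after values were seen, these counts are no result about the set. PTPRN2, the close relative of PTPRN, was at 39.1, 48.6, 44.1, 59.3 and 55.9 CPM against 78.9, 58.6, 54.0, 94.1 and 116 CPM, and CADPS, which primes these vesicles for release, had nearly equal means at 301.7 and 297.1 CPM, from 349, 299, 298, 299 and 264 CPM against 362.9, 256.3, 251.7, 324.7 and 290.1 CPM. GNAS, which encodes the stimulatory G protein subunit, was at 880, 863, 984, 835 and 885 CPM against 1291, 1038, 1110, 1412 and 1268 CPM without overlap.

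Most transcripts of plasma proteins made by the liver went with the sequencing run. ALB was at 14.1, 113 and 43.1 CPM in CEL115, CEL120 and CEL126 and at 65.4, 24.3 and 17.3 CPM in BAC128, BAC130 and BAC136, all of run A. It was at most 0.174 CPM in the 4 libraries of run B. SERPIND1 was the exception, at 114.8 CPM in BAC130 and 9.04 CPM in BAC237. Both drugs were present in each run, run coincided with the label series, and the source of these reads was not tested.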
